A study of Danio rerio with 6 samples.

Results

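Sertoli cells are the somatic cells that nurse the germ cells of the testis, and they were followed here through 9 genes: 4 that encode secreted factors and 5 that encode transcription factors of gonadal sex. The secreted factors were amh, gsdf, inha and inhbb, and the transcription factors dmrt1, sox9a, nr0b1, gata4 and wt1a. The members were a fixed list of symbols, looked up without regard to case in the names paired with the Ensembl identifiers of the deposited count table. The 9 symbols led to 11 of the 32520 identifiers in the table, and all 11 passed the filter on low counts that left 26108 genes. The names amh, gsdf, inha, gata4, DMRT1 and NR0B1 each belonged to 1 identifier. WT1 was taken as wt1a, since wt1b had an identifier of its own. SOX9 and INHBB were each the name of 2 identifiers, and the names do not tell which SOX9 copy is sox9a and which is sox9b. Both copies are therefore reported, SOX9 copy 1 being ENSDARG00000003293 and copy 2 ENSDARG00000043923, and INHBB copy 1 being ENSDARG00000040777 and copy 2 ENSDARG00000103892.

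Testes came from adult wild-type zebrafish (Danio rerio), 3 control fish in water without plastic and 3 fish whose water received polystyrene nanoplastics, plastic beads of submicroscopic size, every 24 h for 96 h. The poly(A) RNA of each fish gave 1 library, called here by the replicate number and then the animal number in its label: control 1-2, 2-2 and 3-1, and exposed 2-2, 3-1 and 3-3. The pair exposed 3-1 and 3-3 thus carries the same replicate number, and the sources used here do not say what a replicate was (a tank or a day, for example). They give neither particle size nor dose. The comparison asks which testis transcripts differ after the short exposure.

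In vertebrates, Amh, Gsdf and the inhibin and activin subunits belong to the TGF-beta superfamily, whose dimeric ligands bind pairs of serine/threonine kinase receptors and act through Smad proteins. In zebrafish gonads Dmrt1 and Amh act on the male side. In fish testes Amh restrains the differentiation of spermatogonia and Leydig cell steroid production, and Gsdf, a factor known from fish, is made by the somatic cells that surround the germ cells. Gata4, Wt1 and Sox9 are known in mammals as activators of the Amh gene, and Nr0b1 (Dax1) as a repressor that opposes such activation.

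Totals ran from 76205591 to 108273937 counts per library, and each exposed total was above each control total. Levels are CPM, counts relative to the library total after TMM scaling, in which 3 counts equal between 0.0262 and 0.0422 CPM, counting error only. They are not corrected for transcript length, so that levels are compared between libraries and not between genes. Log2 fold changes are exposed over control ± SE from edgeR's quasi-likelihood fit over all 26108 genes, with p adjusted by Benjamini-Hochberg over all of them. The label testis was checked against marker genes, those named here being chosen after their values were seen. The ovarian somatic genes FOXL2 (both copies) and CYP19A1, aromatase, stood at no more than 2.26 CPM in any library. Not all genes of ovarian somatic cells were that low. The 11 tested genes of their list, some of them also Leydig cell genes, summed to between 262 and 443 CPM per library, with RSPO1 at 0.675 to 10.8 CPM. Oocyte genes were not absent, their 19 tested members summing to between 110 and 218 CPM per library, with LHX8 at 19.1 to 39.1 CPM. The meiotic gene SYCP1 stood at 732 CPM or more in each library. FSHR, the receptor for follicle-stimulating hormone, listed here among Sertoli cell genes, stood at 17.5 CPM or more in each. The 15 tested genes of spermatids and sperm summed to between 1552 and 3873 CPM per library. In bulk tissue, fewer Sertoli cells and less RNA per Sertoli cell cannot be told apart.

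Of the 9 genes, amh, gsdf, inha and DMRT1 had each exposed library below each control library, at 71.4%, 58.4%, 70.6% and 73.4% of the control mean. SOX9 copy 2 stood the other way, and the other identifiers overlapped between the groups. None of the 11 identifiers passed edgeR at an adjusted p of 0.05 (smallest adjusted p = 0.195, for SOX9 copy 2), where 0 of 26108 genes did (percent called 0). Before adjustment, with p under 0.05, 2 were lower (gsdf and inha) and 1 was higher (SOX9 copy 2), beside 6.79% of all genes lower and 9.68% higher. DESeq2 called SOX9 copy 2 alone, and over all genes it called 5.35% on the higher side and 1.34% on the lower. No identifier was called by limma voom. By sign alone, 6 of the 11 were above 0 (52.1% of all genes) and 5 below (47.9%). The 6 include INHBB copy 2, which lay near the floor and whose sign is not read, and SOX9 copy 1 at 0.03. The 4 identifiers whose groups stood apart on the lower side compare with 10.9% of all genes, and the 1 on the higher side with 12.8%. The count of 2 lower before adjustment was 0 without control 1-2, without control 2-2 or without exposed 2-2, and 1 without control 3-1. It stayed 2 in the remaining runs, but with other genes: gsdf and amh without exposed 3-1, and inha and DMRT1 without exposed 3-3. The 1 higher was 0 without control 1-2 and 2 without control 2-2.

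**Figure D1:**
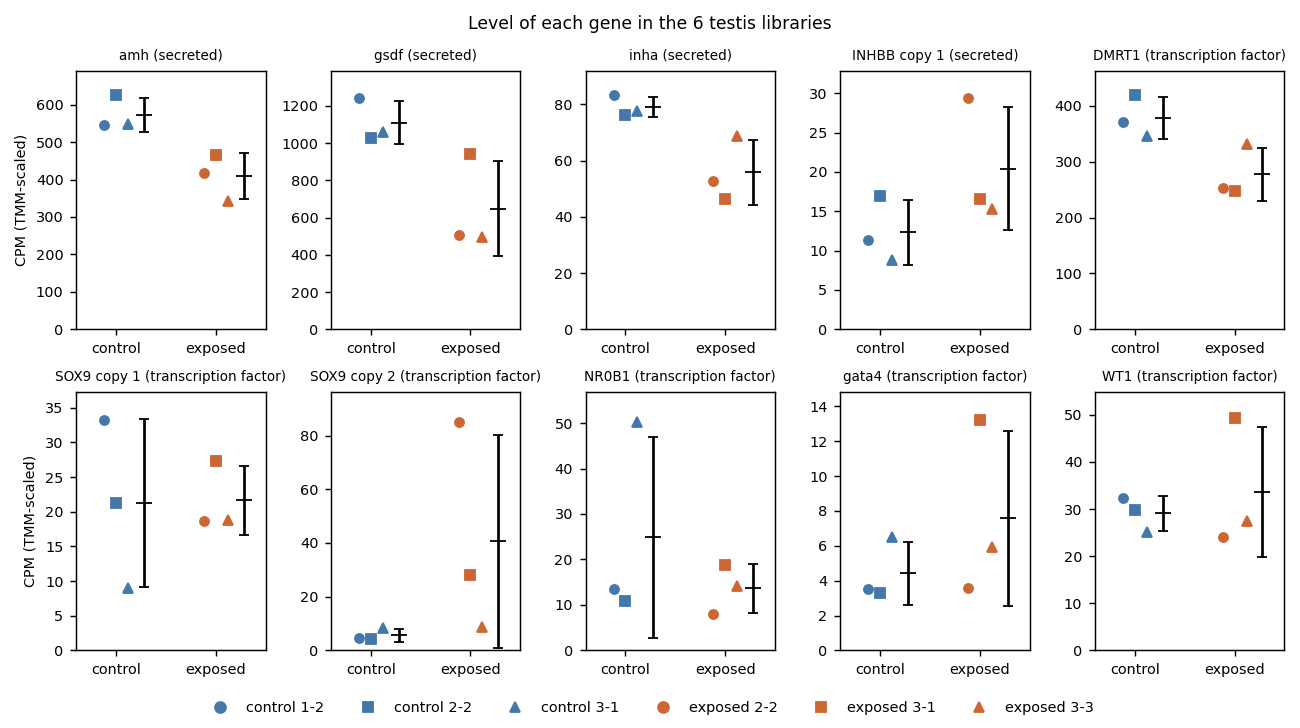
TMM-scaled CPM of 10 of the 11 identifiers in each library (INHBB copy 2 is left out), with a panel per identifier and its own axis from 0. Blue marks are controls, orange marks exposed testes, and the black bar is the group mean ± SD (n = 3). In the panels of amh, gsdf, inha and DMRT1 the orange marks lie below all blue marks.

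Anti-Müllerian hormone, amh (ENSDARG00000014357), stood at 544.8, 625.5 and 547.6 CPM in control 1-2, 2-2 and 3-1 and at 418 CPM, 466 CPM and 343 CPM in exposed 2-2, 3-1 and 3-3. All exposed libraries lay below all controls. The estimate for amh was a log2 fold change of -0.49 ± 0.21, with an adjusted p of 0.308 by edgeR and 0.282 by DESeq2. It moved between -0.60 and -0.38 when each library was left out in turn.

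The gonadal soma-derived factor gsdf (ENSDARG00000075301) stood at 1244, 1028 and 1060 CPM in the controls, and at 505 CPM, 943 CPM and 497 CPM in exposed 2-2, 3-1 and 3-3. Exposed 3-1 lay near the controls, and the other exposed libraries lay near each other, well below every control. The log2 fold change was -0.78 ± 0.30 (edgeR adjusted p = 0.255). Without exposed 3-1 it was -1.16 (edgeR adjusted p = 0.254).

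The inhibin alpha subunit inha (ENSDARG00000052433) pairs with a beta subunit to form inhibin, which in vertebrates lowers the release of follicle-stimulating hormone from the pituitary. It stood at 83.2, 76.4 and 77.7 CPM in the controls and at 52.6, 46.2 and 68.6 CPM in exposed 2-2, 3-1 and 3-3. Control values were close together, and exposed 3-3, not 3-1, was the exposed library nearest to them. On the log2 scale inha differed by -0.50 ± 0.22 (edgeR adjusted p = 0.302).

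The beta B subunit, which makes inhibin with the alpha subunit and activin with another beta subunit, had the opposite sign. INHBB copy 1 stood at 11.3, 16.9 and 8.81 CPM in the controls and at 29.4, 16.5 and 15.3 CPM in exposed 2-2, 3-1 and 3-3. The groups overlapped, exposed 2-2 being the highest library. On the log2 scale it differed by 0.72 ± 0.38 (edgeR adjusted p = 0.388), and without exposed 2-2 it was 0.36. INHBB copy 2 had 0, 14 and 0 counts in the controls and 34, 27 and 0 counts in the exposed libraries, near the floor of 3 counts, and no fold change is given for it.

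Among the transcription factors, DMRT1 (ENSDARG00000007349), the DM-domain factor that maintains male fate in vertebrate gonads, stood at 371, 420 and 346 CPM in the controls and at 253, 248 and 333 CPM in exposed 2-2, 3-1 and 3-3. Exposed 3-3 lay just under the lowest control. The log2 difference of DMRT1 was -0.45 ± 0.22 (edgeR adjusted p = 0.358). DMRT1 is made by germ cells as well as by Sertoli cells, so its level in whole testis is not one of Sertoli cells alone. In the RefSeq gene table of assembly GRCz12tu, which is not the build of the counts and serves here only for gene order, the dmrt1 locus overlaps its relatives dmrt3a and dmrt2a, the chromatin remodeller gene smarca2 and the protease gene adamts3. SMARCA2 averaged 93.2 CPM in controls against 92.9 CPM after exposure. The others averaged 0.938 (DMRT3), 1.32 (DMRT2) and 1.91 CPM (ADAMTS3) in controls against 0.589, 1.07 and 2.55 CPM, far below the counts of DMRT1. The gsdf locus overlaps ppef2b there. The tested gene matched to ppef2b by its name without the paralog letter averaged 0.282 CPM in controls against 1.32 CPM after exposure. It may be another paralog.

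SOX9, a target of male sex determination that drives Sertoli cell differentiation in mammals, has 2 copies in zebrafish, described one by one. Copy 1 stood at 33.3, 21.3 and 9.06 CPM in the controls and at 18.7, 27.4 and 18.8 CPM in exposed 2-2, 3-1 and 3-3, with the groups overlapping (log2 fold change 0.03 ± 0.45, edgeR adjusted p = 0.987). Copy 2 stood at 4.51, 4.07 and 8.31 CPM in the controls and at 85.0, 28.1 and 8.59 CPM in exposed 2-2, 3-1 and 3-3. Exposed 3-3 thus lay only just over control 3-1, and exposed 2-2 held most of the difference.

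For SOX9 copy 2 the log2 fold change was 2.85 ± 0.83 (edgeR adjusted p = 0.195, voom adjusted p = 0.356). DESeq2 called it higher (adjusted p = 0.00144). Without exposed 2-2 the log2 fold change was 1.70, and without exposed 3-3 edgeR called it (log2 fold change 3.33, adjusted p = 0.0445). The exposed libraries had the same order for the summed level of epidermis markers, all 34 of which had log2 fold changes above 0. This sum was between 2833 and 6453 CPM in the controls and 24386, 20630 and 3606 CPM in exposed 2-2, 3-1 and 3-3. Among them the epidermal stem cell factor TP63 stood at 59.2, 50.9 and 9.71 CPM in those exposed libraries and at 4.53 to 11.8 CPM in the controls, which exposed 3-3 did not exceed. No epidermis marker was at 0 in all controls. The order was not particular to epidermis. Summed markers of macrophages and neutrophils, of kidney, of smooth muscle around the tubules and of Leydig cells also had it in the exposed libraries. Among the controls, 2-2 had the highest epidermis sum and the lowest level of SOX9 copy 2. The part of epidermal RNA, or of RNA from those other cells, in the level of SOX9 copy 2 was not tested.

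NR0B1 (ENSDARG00000056541), an orphan nuclear receptor that represses steroid and sex-determination genes, stood at 13.5, 10.8 and 50.3 CPM in control 1-2, 2-2 and 3-1 and at 7.98, 18.7 and 14.2 CPM in exposed 2-2, 3-1 and 3-3. Control 3-1 alone set the difference between the group means. The log2 fold change of -0.87 ± 0.63 (edgeR adjusted p = 0.561) became 0.15 without that library. Markers of the liver summed to 2225, 1127 and 31544 CPM in the controls and to 2217, 11612 and 3453 CPM in the exposed libraries, so that control 3-1 was highest and exposed 3-1 next for both. Of the 28 liver markers 22 were below 0, 0 of them with an edgeR p under 0.05 before adjustment, and none was at 0 in all controls. The part of liver RNA in the NR0B1 level was not tested.

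**Figure D2:**
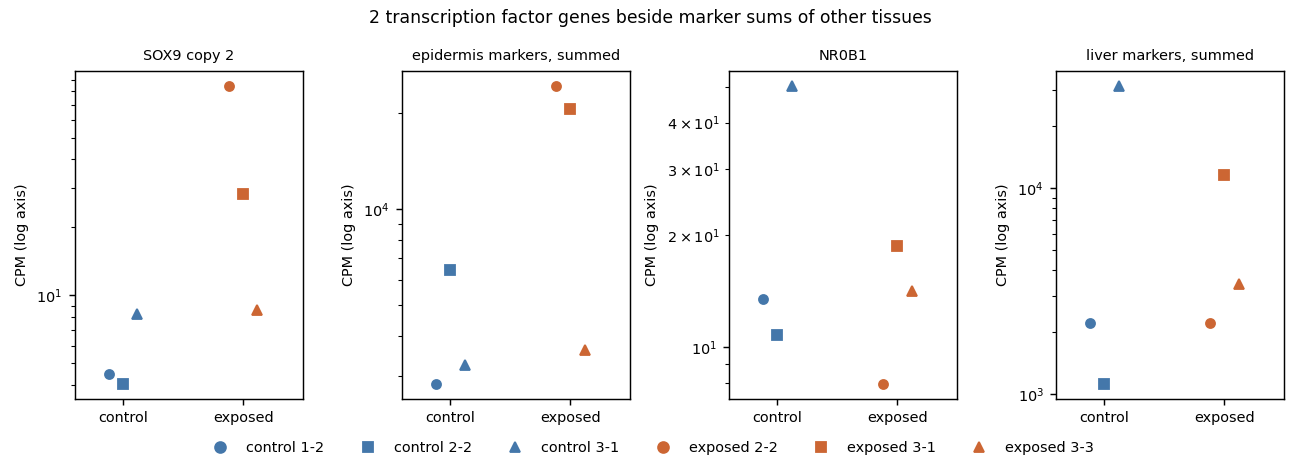
CPM of SOX9 copy 2 and of NR0B1 in each library beside the summed CPM of 34 epidermis and 28 liver markers, on log axes, with controls in blue and exposed testes in orange. SOX9 copy 2 and the epidermis sum are highest in exposed 2-2, and NR0B1 and the liver sum are highest in control 3-1.

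The zinc-finger factor gata4 (ENSDARG00000098952), which opens the genital ridge programme in mammals, had between 257 and 1242 counts per library. It stood at 3.50, 3.28 and 6.50 CPM in the controls and at 3.58, 13.2 and 5.95 CPM in the exposed libraries. One library, exposed 3-1, was high, and the log2 fold change of 0.78 ± 0.58 (edgeR adjusted p = 0.570) was 0.095 without it. WT1 (ENSDARG00000031420), a zinc-finger factor of Sertoli cells and the kidney, stood at 32.4, 29.9 and 25.1 CPM in the controls and at 24.1, 49.3 and 27.4 CPM in the exposed libraries. Exposed 3-1 was again the high one, and the log2 fold change of 0.21 ± 0.31 (edgeR adjusted p = 0.811) was -0.19 without it.

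**Figure D3:**
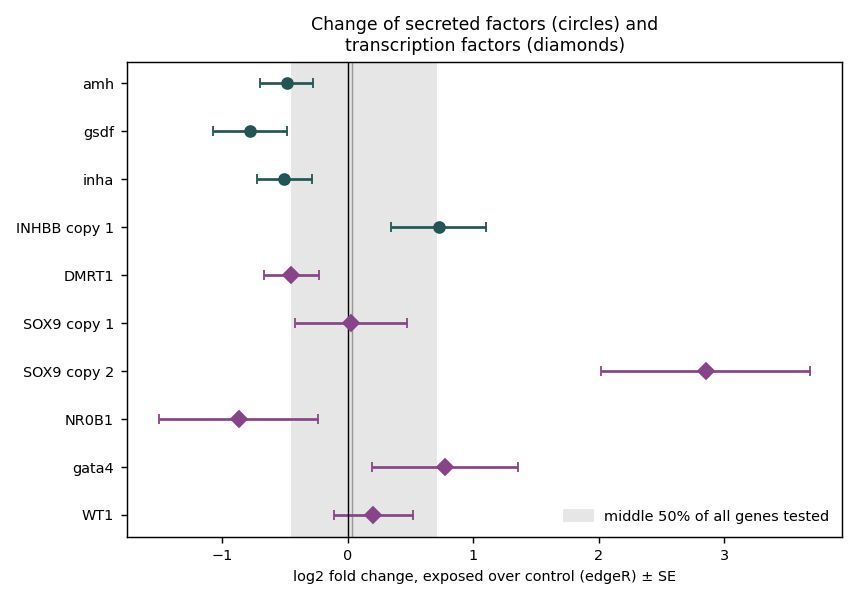
Log2 fold change of 10 identifiers, exposed over control, as the edgeR estimate ± SE; circles are secreted factors and diamonds transcription factors, and the grey band holds the middle 50% of all genes tested. Bars of amh, gsdf, inha and DMRT1 lie left of 0, and SOX9 copy 2 lies farthest to the right at 2.85.

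The secreted factors were then set against the transcription factors within each library, which needs no scaling between libraries. As the mean log2 CPM of the 4 secreted genes minus that of the 5 transcription factor genes, with both copies of SOX9 and of INHBB summed, the difference was 2.44, 2.72 and 2.03 in control 1-2, 2-2 and 3-1. It was 2.25, 1.62 and 1.99 in exposed 2-2, 3-1 and 3-3, and the groups overlapped. The group means were 2.40 ± 0.35 and 1.95 ± 0.32 (SD, n = 3), 0.44 lower in exposed testes, and the secreted mean was lower by 0.28 while the transcription factor mean was 0.16 higher. From summed CPM, which the most abundant members dominate, both kinds were lower in exposed testes. The log2 sum was lower by 0.68 for the secreted factors and by 0.23 for the transcription factors. Sums of the transcription factors were 458, 489 and 445 CPM in the controls and 392, 385 and 408 CPM in the exposed libraries, without overlap. DMRT1 alone held 371, 420 and 346 CPM of these control sums and 253, 248 and 333 CPM of the exposed sums. No other transcription factor identifier was lower without overlap, so the gap between these sums mostly restates DMRT1. The direction of the transcription factors as a group thus depended on the summary. No test was made of this score, since the members were chosen with results known. Without SOX9 the difference between the groups was -0.22, and with SOX9 copy 1 alone it was -0.27. Within both kinds of factor there were members of either sign: INHBB was above 0 among the secreted factors, and DMRT1 below 0 among the transcription factors.

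Ratios of single members within a library followed, those printed being chosen after their values were seen. Of gsdf to WT1 the ratio of CPM was 38.3, 34.4 and 42.2 in the controls and 20.9, 19.1 and 18.1 in exposed 2-2, 3-1 and 3-3. All exposed libraries were close together and well below the controls, exposed 3-1 included, in which gsdf and WT1 both stood higher than in the other exposed libraries. On the log2 scale the ratio was lower by 0.98 in exposed testes, with an SD of 0.10 among exposed libraries. The ratio of gsdf to INHBB was 110, 60.2 and 120 in the controls and 17.0, 56.1 and 32.5 in the exposed libraries.

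Of the 8 ratios of gsdf to another member, 4 had groups that did not overlap, each lower in exposed testes, where 33.0% of all other genes gave such a ratio with gsdf. For amh 2 of 8 did, those to INHBB and to SOX9, where 28.8% of all genes did. The ratio of amh to DMRT1 overlapped between the groups, at 1.47, 1.49 and 1.58 in the controls and 1.65, 1.87 and 1.03 in the exposed libraries, where it spread more widely. Over all 36 pairs the smallest p of the two-sided exact permutation test was 0.1, and 0.4 after Benjamini-Hochberg adjustment over the pairs. A p of 0.1 is the smallest that 3 against 3 libraries allow. At the threshold used for edgeR this test could thus call no pair, whatever its ratios. The members were also chosen with results known, so no conclusion about the ratios is drawn from this test.

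**Figure D4:**
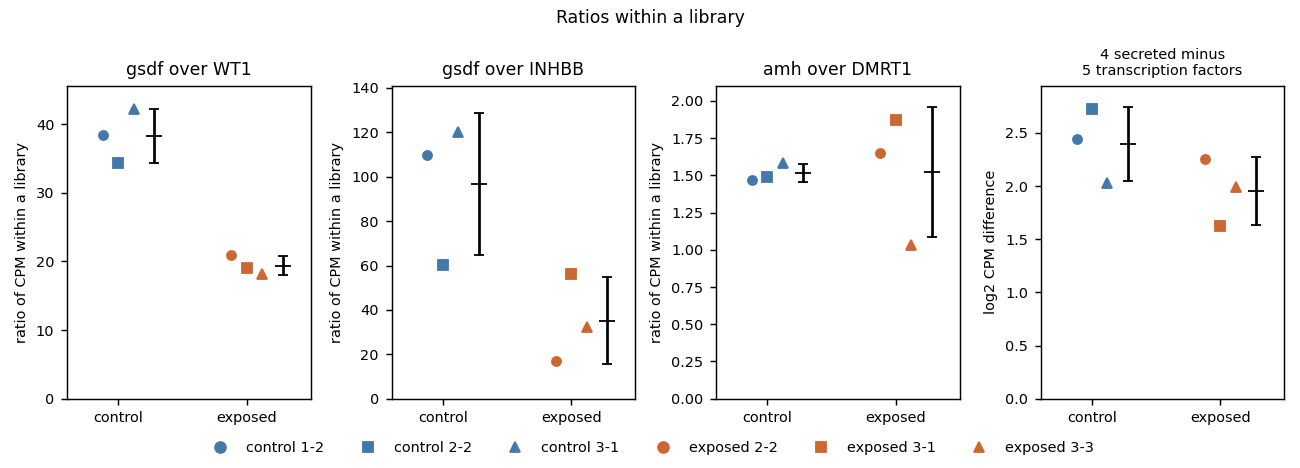
Ratios of CPM within each library for gsdf over WT1, gsdf over INHBB and amh over DMRT1, and the log2 difference between the secreted and the transcription factor genes; blue marks are controls, orange marks exposed testes, black bars the group mean ± SD (n = 3). For gsdf over WT1 the exposed libraries lie between 18.1 and 20.9 and the controls between 34.4 and 42.2.

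Other genes of the Sertoli cell had either sign. Of 21 tested genes of that list, members left out, 9 were above and 12 below 0, with a median log2 fold change of -0.08 beside 0.04 over all genes. By edgeR 3 were lower and 2 higher with p under 0.05 before adjustment, beside 6.79% and 9.68% of all genes, and 0 after it. The groups stood apart for 5 of the 21 on the lower side and for 2 on the higher side, beside 10.9% and 12.8% of all genes. On the lower side stood GJA1, the gap junction protein connexin 43 through which Sertoli cells couple, at 110, 165 and 123 CPM in the controls and 93.9, 64.7 and 59.5 CPM in exposed 2-2, 3-1 and 3-3. Both copies of NR5A1, the nuclear receptor SF-1 that activates Amh in mammals, were also on that side, with log2 fold changes of -0.87 ± 0.37 and -0.76 ± 0.31 (edgeR adjusted p = 0.294 and 0.283). The more abundant copy stood at 47.2, 72.5 and 36.6 CPM in the controls and at 34.6, 34.8 and 22.8 CPM in the exposed libraries. Summed Leydig cell markers were 3507, 5218 and 2514 CPM in the controls and 3012, 2072 and 1706 CPM in the exposed libraries. Both were highest in control 2-2 and lowest in exposed 3-3. The part of Leydig cells in the NR5A1 level was not tested. On the higher side stood clusterin, CLU, a secreted chaperone, which averaged 23.7 ± 4.28 CPM in the controls against 46.2 ± 9.18 CPM after exposure (SD, n = 3; edgeR adjusted p = 0.170, DESeq2 adjusted p = 0.0360). The kit ligand gene kitlga was higher in exposed 2-2 and 3-1, at 27.2 and 33.2 CPM, than in exposed 3-3 at 13.5 CPM, with controls of at most 13.0 CPM. The most abundant genes of the list, ALDH1A2, krt18a.1 and a CLDN11 copy, had log2 fold changes of -0.08, 0.01 and 0.48.

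Set against the mean log2 level of these 21 genes in the same library, amh was lower by 0.48 and gsdf by 0.83 in exposed testes, and for both the groups stood apart by a small gap. On this scale the lowest control and the highest exposed library were 4.85 and 4.79 for amh and 5.81 and 5.78 for gsdf. SOX9 copy 2, higher by 2.37, also had groups apart. Over all genes the groups stood apart for 8.05% on the lower side and 12.7% on the higher side. For inha and DMRT1, lower by 0.51 and 0.44 on that scale, the groups then overlapped. The mean of the 21 genes takes in some near the floor, among them a gene with 0 counts in control 2-2 and a gene with 2 counts in control 1-2. Such genes can move it, so gaps as small as those of amh and gsdf carry little weight.

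Partners of the male pathway had either sign too. Of 28 tested genes 18 were above and 10 below 0 (median 0.28), and by edgeR 4 were higher and 2 lower with p under 0.05 before adjustment, 0 after it. Over all genes 9.68% were higher and 6.79% lower by that p. The lists can share genes, and the 2 lower were the NR5A1 copies already counted among the Sertoli cell genes. SOX8, the close relative that overlaps with Sox9 in function in mice, had a copy at 89.0, 92.9 and 51.8 CPM in the controls and at 60.6, 41.2 and 50.5 CPM in the exposed libraries (log2 fold change -0.62 ± 0.28, edgeR adjusted p = 0.326). The homeobox gene EMX2, needed for the genital ridge in mice, averaged 4.45 ± 1.33 CPM in the controls against 12.3 ± 4.45 CPM after exposure (SD, n = 3; edgeR adjusted p = 0.186, DESeq2 adjusted p = 0.0389). SOX3 had a log2 fold change of 5.11 ± 1.22 (edgeR adjusted p = 0.166, DESeq2 adjusted p = 1.6e-06, voom adjusted p = 0.546). It stood at no more than 0.761 CPM in the controls and at 36.1, 18.5 and 1.27 CPM in exposed 2-2, 3-1 and 3-3. The exposed libraries had this order for the epidermis markers and for the other marker sums given with SOX9 copy 2. The part of those tissues in the SOX3 level was not tested.

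Of 22 tested genes of the female side, 15 were above and 7 below 0 (median 0.14), and by edgeR 1 was lower with p under 0.05 before adjustment, 0 after it. Over all genes 6.79% were lower and 9.68% higher by that p, and 52.1% were above 0. The lower one was figla, an oocyte factor, which averaged 7.58 ± 4.07 CPM in the controls against 3.18 ± 0.87 CPM after exposure, with overlap (SD, n = 3; edgeR adjusted p = 0.296). Most oocyte genes had the opposite sign: of the 19 tested in the oocyte list, figla included, 15 were above 0 (median 1.30). Before adjustment 6 were higher and 2 lower by edgeR p, with 0 after it, beside the same shares of all genes. DESeq2 called 4 of the 19 higher and 0 lower, beside 5.35% and 1.34% of all genes. Their summed CPM nevertheless overlapped between the groups, at 132, 121 and 171 in the controls and 142, 110 and 218 in exposed 2-2, 3-1 and 3-3. The 2 copies of FST, follistatin, which binds and blocks activin, had log2 fold changes of 0.56 ± 0.37 and 0.24 ± 0.27.

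Among the relatives and the signalling chain of the secreted members, 0 genes passed edgeR adjusted. Of 29 TGF-beta family ligands, 19 were above and 10 below 0 (median 0.17), with 3 higher and 0 lower by p before adjustment. Over all genes 9.68% were higher and 6.79% lower by that p, and 52.1% were above 0. The same shares apply beside the counts of the lists that follow. The 3 higher ligands were tgfb1a, tgfb1b and a BMP2 copy, with log2 fold changes of 1.15 ± 0.49, 0.85 ± 0.36 and 1.87 ± 0.75. INHBA, the beta A subunit, had its more abundant copy at 27.7, 41.0 and 19.6 CPM in the controls and at 17.8, 18.3 and 22.5 CPM in the exposed libraries, opposite in sign to INHBB copy 1 (log2 fold change -0.59 ± 0.31, edgeR adjusted p = 0.389).

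Of 22 receptors 17 were above 0 (median 0.22), with 2 higher and 0 lower by p before adjustment. The activin type II receptor gene ACVR2A stood at 43.0, 37.5 and 30.2 CPM in the controls and 56.5, 58.3 and 46.1 CPM in the exposed libraries, without overlap (edgeR adjusted p = 0.289). Acvrl1, a type I receptor known from vessel walls, had a log2 fold change of 1.02 ± 0.26 (edgeR adjusted p = 0.165, DESeq2 adjusted p = 0.0262).

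Of 25 Smads and extracellular or nuclear inhibitors, 17 were above and 8 below 0 (median 0.19), with 2 higher and 1 lower by p before adjustment. The lower one was a copy of SOSTDC1, a secreted BMP antagonist. It stood at 59.9, 50.9 and 57.4 CPM in the controls and at 24.1, 31.5 and 35.8 CPM in exposed 2-2, 3-1 and 3-3, groups well apart (log2 fold change -0.88 ± 0.23, edgeR adjusted p = 0.167, DESeq2 adjusted p = 0.0469).

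Genes that Smads are known to switch on were above 0 in 18 of 20 cases (median 0.55), and 6 were higher with an edgeR p under 0.05 before adjustment, 0 after it. The BMP target ID1 stood at 47.7, 47.7 and 48.6 CPM in the controls and at 104 CPM, 104 CPM and 41.9 CPM in exposed 2-2, 3-1 and 3-3. ID2 had the same shape, at 61.1, 45.3 and 19.9 CPM in the exposed libraries and 14.8 to 19.6 CPM in the controls. ID3 was higher in all exposed libraries, at 95.1, 104 and 90.5 CPM beside 53.1 to 71.9 CPM (log2 fold change 0.66 ± 0.21, edgeR adjusted p = 0.196). For ID1 and ID2, as for SOX9 copy 2, exposed 3-3 was the exposed library nearest the controls. That library had the lowest exposed sum for epidermis and for the other markers given with SOX9 copy 2. The part of epidermal RNA, or of RNA from those other cells, in ID1 and ID2 was not tested. Markers of macrophages and neutrophils had the same sign as the Smad targets, 25 of 29 being above 0 and 21 higher by edgeR p before adjustment, 0 after it. DESeq2 called 16 of these 29 markers higher, and 1 of the 20 Smad targets, beside 5.35% of all genes. Sums of the macrophage and neutrophil markers ran from 967 to 2091 CPM in the controls and from 3067 to 5892 CPM in the exposed libraries. Red blood cell markers were above 0 in 13 of 14 cases, with sums of 934 to 2374 CPM against 3397 to 4687 CPM. No marker of either list was at 0 in all controls, and the part of these cells in the Smad targets and in the members was not tested.

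**Figure D5:**
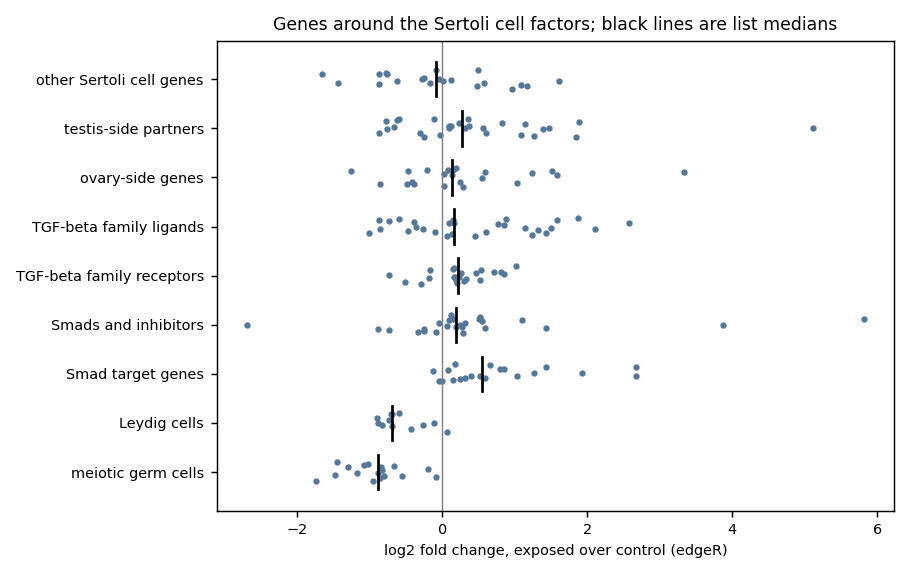
Log2 fold change, exposed over control, of each tested gene in 9 lists around the Sertoli cell factors, with each list's median as a black line. Medians lie between -0.08 and 0.55 for the Sertoli, sex-determination and TGF-beta lists and at -0.69 and -0.88 for Leydig cells and meiotic germ cells.

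Leydig cells make the androgens of the testis, and meiotic germ cells lie within the Sertoli cells' folds. Of 12 Leydig cell genes 11 were below 0 (median -0.69), with 2 lower by edgeR p before adjustment and 0 after it. The Leydig cell hormone gene insl3 stood at 1040, 835 and 426 CPM in the controls and at 691, 174 and 380 CPM in exposed 2-2, 3-1 and 3-3. All 17 tested meiosis genes were below 0 (median -0.88), 14 of them with an edgeR p under 0.05 before adjustment and 0 after it. DESeq2 called 9 of these 17 lower at an adjusted p of 0.05, and 0 of the 12 Leydig cell genes, beside 1.34% of all genes. All 15 tested genes of spermatids and sperm were also below 0 (median -0.76). Of 21 spermatogonia genes 14 were above and 7 below 0 (median 0.40). The summed CPM of spermatogonia genes was nevertheless 2068 to 2473 in the controls and 1195 to 1848 in the exposed libraries. The difference between these lists was not tested. On the same log2 scale amh, inha and DMRT1, at -0.49, -0.50 and -0.45, lay between the medians of the Sertoli and the Leydig lists, and gsdf lay between those of the Leydig and the meiosis lists.

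By likeness of pattern over the 6 libraries, as Pearson's r of log2 CPM among 12468 named genes with a mean of at least 10 CPM, the genes most like amh were zgc:152948 (r = 0.98), BSDC1 (0.97) and the replication factor gene RFC4 (0.97). Those most like gsdf were the tetraspanin gene tspan5b (r = 0.99), RFTN2 (0.99) and mhc2dhb (0.98), an MHC class II beta chain gene. All these genes had a lower mean in the exposed group, a difference that adds to r. In RFTN2 and mhc2dhb the groups nevertheless overlapped, through exposed 3-1. There were 19 genes for amh and 12 for gsdf with r above 0.95. With only 6 libraries and 12468 genes compared, some r this high can arise between unrelated genes, and the likeness was not tested. The 5 genes nearest to amh and the 5 nearest to gsdf had no gene in common. For both, exposed 3-1 was the highest exposed library. There gsdf stood at 943 CPM beside a lowest control of 1028 CPM, and amh at 466 CPM beside a lowest control of 544.8 CPM.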

How the data were processed

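Testis RNA of 6 adult zebrafish was sequenced after poly(A) enrichment, per the labels' protocols. The authors deposited unnormalized whole-number counts for Ensembl genes, a column for each fish. Per the submitters' processing notes, reads were aligned with STAR to GRCz11. The sources used here give no version, counting tool, annotation release or use of strand, so how reads of paralogs and overlapping genes were shared out is unknown. Columns were matched by the sample description, and 0 columns were left out. Between 66.8% and 75.1% of counts from 10 to 99 in a library were even numbers, so halved counts were tried as an alternative.

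Gene names came from a table that named 29201 of 32520 identifiers, and unnamed genes held 1.42% of counts. Of 423 symbols in 21 lists, 297 were matched by their own name, 18 by elimination, 75 through a name shared by paralogs, and 33 had no match. Genes were filtered with filterByExpr and scaled by TMM. The test was the two-sided quasi-likelihood test of edgeR 4.0.16 (robust glmQLFit, default method) with group as the only term. The SE is the absolute log2 fold change over the square root of F. Log2 CPM for scores and likeness had a prior count of 2. DESeq2 1.42.0 and limma 3.58.1 (voom) were alternatives, with R 4.3.3 and figures from matplotlib 3.10.9 in Python 3.11.15. The members and the lists were chosen with earlier results of these data known. All members are named; of each list, the 3 most abundant genes and the 3 with the smallest p in each direction could be named, and genes for likeness were the 5 with the highest r. SYCP1, FSHR, TP63, FOXL2, CYP19A1, RSPO1 and the genes overlapping dmrt1 and gsdf were named outside that rule, chosen after their values were seen. Nothing says that animals came from separate tanks, so p-values measure the spread between these animals. Coordinates are not printed, because the gene table used has another build than the counts.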

Additional observations from a re-analysis of the deposited data

How the results depend on the processing

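Of the 11 identifiers, edgeR called 0 under each scaling, filter and threshold tried and with halved counts; DESeq2 called 1 (SOX9 copy 2), and with a library left out the number was 0 to 1, the 1 being SOX9 copy 2 without exposed 3-3. Over all genes the count of 0 became 1756 by DESeq2, 70 by edgeR's bias-adjusted method, 12 with no filter, 17 at an adjusted p of 0.1, and 1 with relative log expression, upper quartile scaling, library totals or halved counts. With a library left out it ran from 0 to 396. With the replicate number as a block 5 genes were called, none of them a member. The 2 members lower before adjustment (gsdf and inha) became 1, gsdf, by DESeq2, the bias-adjusted method, a fit without robust shrinkage, relative log expression and library totals. With the replicate block neither remained, and the 1 lower was NR0B1. They became 3, with amh, by voom, halved counts or a mean of at least 1 CPM, and upper quartile scaling gave gsdf and amh; the 1 higher became 0 by voom and the block. Deviations of same-numbered libraries from their group means correlated at -0.01, 0.02 and -0.03. With 3 libraries in each group such correlations cannot settle whether a number marks a shared tank or day.

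The signs of amh, gsdf, inha, DMRT1, INHBB copy 1, gata4 and SOX9 copy 2 held in every alternative run. INHBB copy 2, near the floor, did not pass the filter with halved counts or with a mean of at least 1 CPM, and its sign is not read. SOX9 copy 1 went to -0.0046 with upper quartile scaling and, with a library left out, ran from -0.35 to 0.51. NR0B1 ran from -1.24 to 0.15 and WT1 from -0.19 to 0.39 with a library left out. The other scalings shifted the median log2 fold change of all genes only between 0.01 and 0.06, and thus test the signs little. The difference between secreted and transcription factor genes was -0.45 with a prior count of 0.5, -0.73 by medians, -0.44 from summed CPM, -0.41 without the most abundant member of each kind, and -0.63 to -0.28 with a library left out. Chosen after seeing the data, SOX9 copy 2 alone gave -0.70, SOX9 copy 1 alone -0.27 and leaving SOX9 out -0.22. The members had at least 257 counts in each library except INHBB copy 2, whose level depth does not resolve.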
